A study of Rattus norvegicus with 12 samples.

Results

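Cytosolic ribosomal protein genes were followed with age in the rostral ventrolateral medulla (RVLM), a brainstem area that sets sympathetic outflow and with it blood pressure. The members were the probes whose gene name in the array file begins with Rpl or Rps and codes a ribosomal protein by name, without ribosomal S6 kinases and unnamed loci. By this rule 112 of 41012 probes were members, and they stand for 75 genes, 44 of the large and 31 of the small ribosomal subunit. All 112 member probes were well above background on all 12 arrays, so the filter on dim probes, which kept 29797 probes, removed no member. For each gene the brightest probe was used, and 25 genes had more than 1 probe.

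RNA came from micropunches of male F344 rats, an inbred strain, with no further treatment named in the labels. The groups were young rats of 3 months, middle-aged rats of 12 months and aged rats of 24 months, with 3 animals in each. Replicate 3 of each age was hybridised to a pair of arrays, which were averaged, so the animal was the unit. Whole punches were measured, and more cells of a type cannot be told apart from more RNA per cell.

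A cytosolic ribosome is built from a large subunit, which joins amino acids, and a small subunit, which reads the mRNA. Ribosomal protein genes are expressed in every cell, and most of their products are needed in equal numbers. Most of their mRNAs begin with a C followed by a run of C and T bases, the terminal oligopyrimidine, through which the growth kinase mTOR and the RNA-binding protein Larp1 control their translation. In neurons part of the ribosomes is carried into dendrites, where proteins are made near synapses.

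Some of the annotated starts carry this feature and others do not, so windows of 20 bases on either side of the annotated start are printed for the 4 genes with the largest and the 4 with the smallest aged minus young difference among those with a window. RefSeq promoter windows on build GRCr8, from 250 bases before to 50 bases after the start, matched 59 of the 75 genes by symbol, after Rps27a was left out for having a pair of windows. Capitals mark the unbroken run of C and T that holds the annotated first base, which is the 21st letter; a line with no capitals has another base there. The genes with the largest difference come first.
Rplp1, chr8:71290853-71290892, minus strand: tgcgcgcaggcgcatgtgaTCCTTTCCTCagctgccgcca
Rps16, chr1:92770638-92770677, plus strand: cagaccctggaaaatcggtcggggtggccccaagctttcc
Rps28, chr7:15311314-15311353, minus strand: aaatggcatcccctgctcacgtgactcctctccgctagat
Rps13, chr1:180009641-180009680, minus strand: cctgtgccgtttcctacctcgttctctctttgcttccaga
Rpsa, chr8:128728859-128728898, plus strand: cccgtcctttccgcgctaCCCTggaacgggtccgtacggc
Rpl4, chr8:73566457-73566496, plus strand: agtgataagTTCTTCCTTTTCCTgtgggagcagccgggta
Rpl18, chr1:105325250-105325289, plus strand: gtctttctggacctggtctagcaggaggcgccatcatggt
Rpl37a, chr9:81748071-81748110, plus strand: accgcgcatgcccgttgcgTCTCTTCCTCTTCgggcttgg

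A C at the annotated start followed by 4 bases that are each C or T was found in 23 of the 59 members (39.0%), against 2.63% of all 33469 windows. The letters CTTT within 10 bases on either side of the start, on the gene's strand, were found in 30 members (50.8%), against 7.69% of all windows. CCGGAAG on either strand of the whole window was found in 19 members (32.2%), against 8.75% of all windows, and AAGATGGC in 5 (8.47%), against 3.17%. The 23 genes with the start of the first kind had a median aged minus young difference of 0.20 log2 units, and the 36 others one of 0.18. Windows and differences were joined by the symbol in the array file. This holds also for Rpl36a and Rpl37, whose brightest probes now belong to Rpl36al1 and Rpl37l1. The windows at both ends of the ranking held runs and lacked them, as the 8 lines above show. These matches describe letters in the reference genome and not where transcription began in these rats.

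Between 73.5% and 77.1% of the spots of an array exceeded background clearly, 0 spots were saturated, and the number of animals limits the precision. Values are log2 signals minus the array's 75th percentile. Slide and age overlapped in part: young animals were on slides 1 and 3, aged animals on slides 2 and 3, and middle-aged animals on all 3 slides. Nothing in the labels ties a replicate number to a shared litter or day. On the first principal component of all probes, which held 26.1% of the variance, aged replicate 3 stood at 37.82 and the other animals at −24.62 to 20.49. Middle-aged replicate 2 stood apart on the third component (13.8%), at −37.69 against −2.97 to 13.8. Of the markers listed for the catecholamine (C1) neurons that define the region, Th, Dbh, Ddc and Slc18a2 were measured above the filter. Pnmt, also listed, had no probe under that name.

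In aged compared with young rats, ribosomal protein genes of both subunits lay together above the young level, by a median of 0.19 log2 units (14.4%) over the 75 genes, with 74 of the 75 differences above 0. The single difference below 0 was that of the dim Rpl37a probe, at −0.060. It was 0.10 without aged replicate 2 and 0.017 without young replicate 3. It lay further below 0 without young replicate 1, aged replicate 1 or aged replicate 3. Over all probes 55.1% of differences were above 0 and their median was 0.022. By limma, a linear model with moderated variances, 0 of the 75 genes passed at a Benjamini-Hochberg adjusted p under 0.05 over all probes, against 1.85% of all probes. The lowest limma adjusted p among the members was 0.112, for Rps13. At an unadjusted p under 0.05, 29 members were higher in aged rats and 0 lower, against 9.59% of all probes higher and 5.54% lower. All 3 aged animals lay above all 3 young animals for 47 of the 75 genes, against 13.2% of all probes, and below them for 0 genes, against 9.73% of all probes. The size of each difference was small, with quartiles of 0.16 and 0.23, and the median standard error (SE) of a gene was 0.091.

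The unadjusted count of 29 genes rested on the animals and the scaling. The share of all probes higher at that threshold follows each count in parentheses. The count was 9 without young replicate 1 (8.04%), 9 without young replicate 2 (6.97%) and 42 without young replicate 3 (9.16%). It was 13 without aged replicate 1 (10.2%). Without aged replicate 3 it was 5 of 75, close to the share of all probes (7.11%). Slide as a block gave 12 (8.03%), median scaling 12 (6.87%) and quantile normalization 10 (7.59%). The fit over 12 arrays gave 39 (8.81%) and the authors' deposited series matrix 61 (7.59%). In each of these, 69 to 75 of the 75 differences were above 0. The median difference itself was 0.13 with quantile normalization, 0.15 with median scaling, 0.15 once slide entered the model, and 0.15 within slide 3, where aged replicate 3 met young replicate 3. Without aged replicate 3, the animal apart on the first component, it was 0.16.

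Most members lay to the same side of the young mean in each young and aged animal, and less uniformly in the middle-aged animals. Expressed for each gene as the difference from its young mean, the median over the 75 genes was −0.060, −0.039 and 0.092 in the young animals, 0.028, 0.18 and 0.037 in the middle-aged animals, and 0.19, 0.14 and 0.26 in the aged animals, replicates 1 to 3 in that order. The 3 aged animals lay above the 3 young ones, and middle-aged replicate 2 lay within the aged range. Group means of these medians were −0.0024 ± 0.082 at 3 months, 0.082 ± 0.086 at 12 months and 0.19 ± 0.061 at 24 months (SD, n = 3 each). The median over all probes kept ranged over the 9 animals from −0.019 to 0.054, and its highest value was also that of aged replicate 3. Of the 75 genes, 11, 12 and 71 lay above the young mean in young replicates 1 to 3, 48, 70 and 54 in the middle-aged animals, and 74, 74 and 73 in the aged animals.

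**Figure D1:**
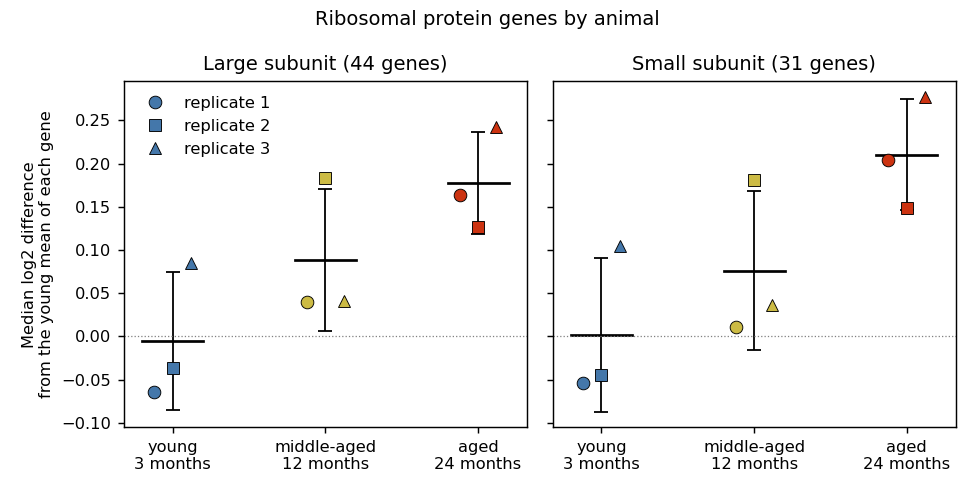
Median log2 difference from each gene's young mean, for the 44 large subunit genes (left) and the 31 small subunit genes (right), by age group on the horizontal axis. Each symbol is 1 animal (shape gives the replicate), bars are the group mean and whiskers ± SD; all aged animals lie above all young ones in both panels, and middle-aged replicate 2, at 0.18 in both, lies above the other middle-aged animals.

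The pair of arrays of 1 animal gave much the same value. Over the 75 genes the arrays of a pair differed by a median of 0.039 log2 units in young replicate 3, 0.031 in middle-aged replicate 3 and 0.029 in aged replicate 3. Young replicate 3 was on slides 1 and 3 and gave medians of 0.083 and 0.11 there. Young replicates 1 and 2 were on slide 1 only, so its distance from them within a slide was seen on slide 1 alone. On slide 3 the medians were 0.28 and 0.25 on the aged arrays, 0.027 on the middle-aged array and 0.11 on the young array.

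Genes followed the body of members to different degrees. Across the 9 animals, whose genes share each array's scaling and slide, the correlation of a gene with the median of the other 74 had a median of 0.89, and 70 of 75 genes were above 0.5. This is a description only. Rplp1, a protein of the P stalk, had 0.99. The 5 genes that were not above 0.5 were Rpl4 (−0.28), Rps26 (0.054), Rpsa (0.056), Rpl37a (0.25) and Rpl10l (0.47). In 50 of the 75 genes the highest of the 9 animals was aged replicate 3, and in 13 it was middle-aged replicate 2.

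Small subunit genes had the larger median difference. The median aged minus young difference was 0.21 over the 31 small subunit genes and 0.18 over the 44 large subunit genes. An unadjusted limma p under 0.05 was reached by 16 of the 31 and 13 of the 44, all higher in aged rats. Over all probes 9.59% were higher at that threshold. The groups did not overlap for 24 of the 31 and 23 of the 44, all higher, against 13.2% of all probes. The total of 29 genes at the unadjusted threshold moved with the animals and the scaling, as given above. The median of the large minus that of the small subunit was −0.042, −0.022 and −0.035 in the aged animals, 0.030, 0.0015 and 0.0047 in the middle-aged animals and −0.011, 0.0081 and −0.019 in the young animals. It was lower in each aged animal than in each young animal, with aged replicate 2 and young replicate 3 close to each other. The arrays of aged replicate 3 gave −0.044 and −0.043, and those of young replicate 3 −0.014 and −0.022. In the aged minus young comparison the large minus small subunit median was −0.011 with slide as a block, against −0.027 without. The difference between the subunits was not tested.

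**Figure D2:**
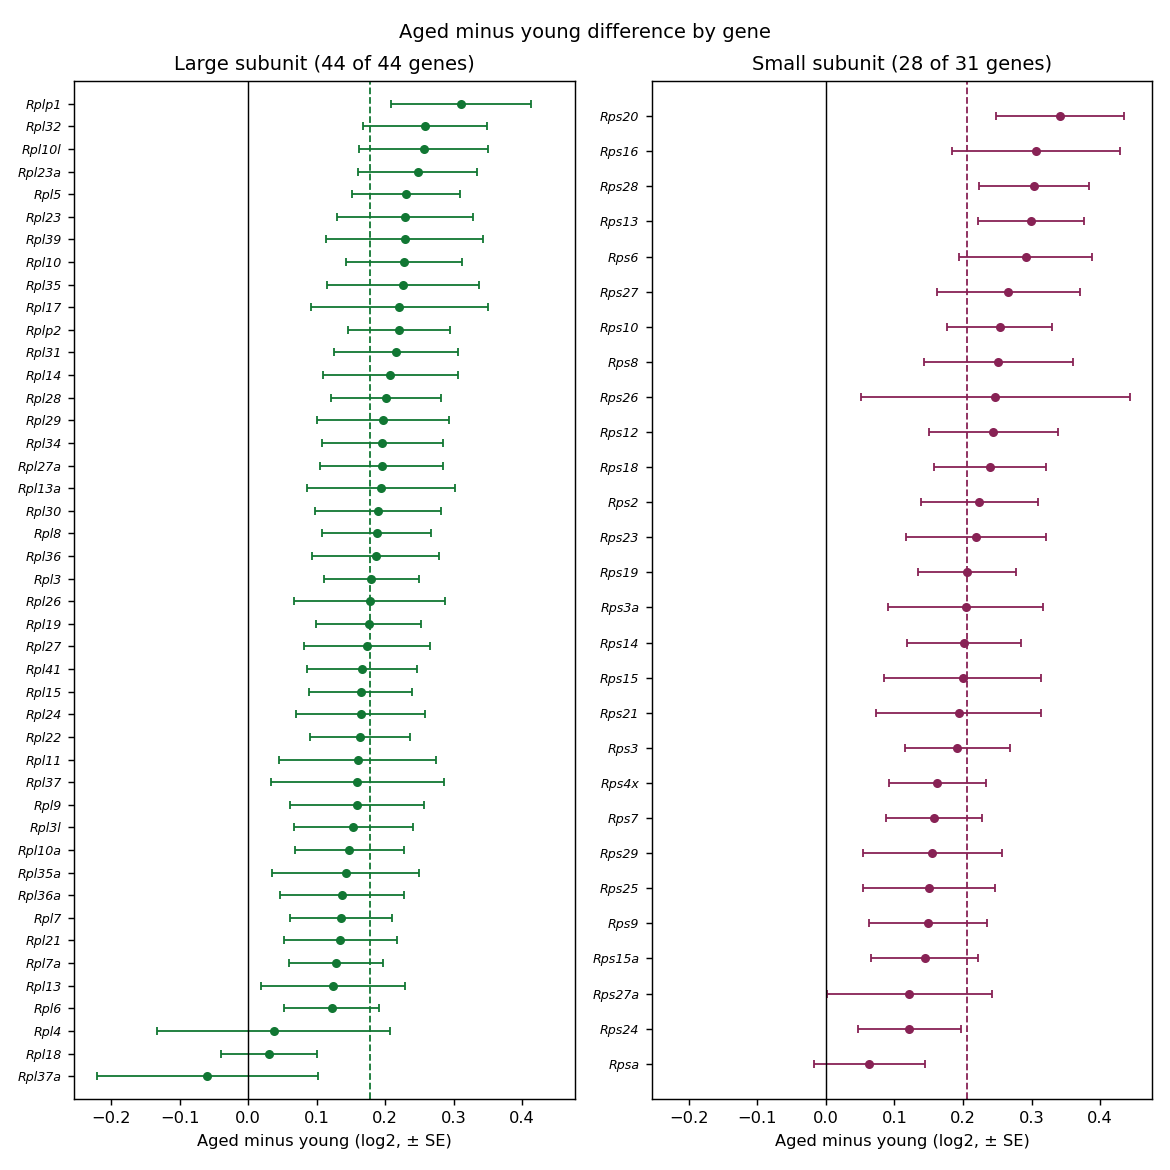
Aged minus young log2 difference of 44 large subunit genes and 28 of the 31 small subunit genes, each with its limma standard error (whiskers), ranked within the large subunit (left, green) and the small subunit (right, purple); dashed lines are the medians of all genes of the subunit, 0.18 and 0.21. All points but Rpl37a lie above 0, and Rpl4, Rpl18 and Rpsa lie closest to it.

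Among small subunit genes, the largest difference was that of Rps20, a protein of the head of the small subunit. Its probe lies at chr5:162092895-162092954 on the plus strand (rat build rn3, as the array file gives it). Its log2 signal was 6.14, 6.25 and 6.42 in young, 6.28, 6.42 and 6.34 in middle-aged and 6.55, 6.56 and 6.72 in aged animals. The aged animals did not overlap either other group. The aged minus young difference was 0.34 ± 0.093 (SE, n = 3 animals each), or 1.27-fold, and did not pass (limma adjusted p = 0.13). A second probe of the same transcript gave 0.30 ± 0.087.

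Rps28 and Rps26 are neighbours at the site where mRNA leaves the small subunit. Rps28 had log2 signals of 6.65, 6.77 and 6.91 in young, 6.75, 6.81 and 6.80 in middle-aged and 7.03, 7.10 and 7.12 in aged animals. The young and middle-aged animals overlapped and all aged animals lay above them. The difference was 0.30 ± 0.081 from young (limma adjusted p = 0.121) and 0.29 ± 0.081 from middle-aged animals (limma adjusted p = 0.317). It had the lowest adjusted p of the members in the F test over all ages, 0.198. In the authors' deposited series matrix, whose values are scaled to SD units within an array, Rps28 was the 1 member that passed, at 0.12 such units (limma adjusted p = 0.0459). Rps26 differed in a single animal: its signal was 1.16 in middle-aged replicate 2, against 1.81 to 2.20 in the other middle-aged animals and in the aged animals, and 1.69 to 2.14 in the young animals. Its aged minus young difference was 0.25 ± 0.20, with overlapping groups.

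Rps13, Rps16 and Rps6 also lay among the largest differences. Rps13, which sits where the subunits meet, had 4.74, 4.73 and 4.85 in aged animals, against 4.52, 4.52 and 4.39 in young animals. Young replicate 3, the highest young animal for 67 of the 75 genes, was the lowest here. The difference was 0.30 ± 0.078. Rps16, whose tail reaches the peptidyl site, had 7.65, 7.69 and 7.77 in aged animals, against 7.34, 7.30 and 7.55 in young animals, a difference of 0.31 ± 0.12 (limma adjusted p = 0.291). Rps6, the small subunit protein that S6 kinase phosphorylates downstream of mTOR, had 7.81, 7.88 and 7.89 in aged animals, against 7.40, 7.53 and 7.76 in young animals. Its difference was 0.29 ± 0.097 (limma adjusted p = 0.21). In all 3 genes the aged animals lay above the young ones.

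By place on the small subunit, the ranges of the differences overlapped. At the mRNA entry (Rps2, Rps3 and Rps9) they ran between 0.15 and 0.22, and in the head and decoding site (Rps10, Rps15, Rps18, Rps20, Rps23 and Rps29) between 0.16 and 0.34. At the mRNA exit, Rps3a, Rps14, Rps26 and Rps28 gave 0.20, 0.20, 0.25 and 0.30. The smallest difference of the small subunit was that of Rpsa, known also as the laminin receptor precursor. Rpsa had 4.19, 4.25 and 4.10 in aged animals, against 4.19, 4.07 and 4.09 in young animals, 0.063 ± 0.082. Rps24 and Rps27a, of which Rps27a is made as a fusion with ubiquitin, followed with 0.12 each.

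Among large subunit genes the largest difference was that of Rplp1, a protein of the P stalk, which recruits the elongation factors. Rplp1 had log2 signals of 7.77, 7.80 and 8.004 in young, 7.88, 8.12 and 7.86 in middle-aged and 8.11, 8.13 and 8.27 in aged animals. Middle-aged replicate 2 reached the aged range, and the aged and young animals did not overlap. The aged minus young difference was 0.31 ± 0.10 (limma adjusted p = 0.206), or 1.24-fold, and that of Rplp2 was 0.22 ± 0.075 (limma adjusted p = 0.22).

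Rpl5 and Rpl11 bring a small ribosomal RNA into the large subunit and, when free, bind the p53 regulator Mdm2. They gave 0.23 ± 0.079 and 0.16 ± 0.11, and in both the aged animals lay above the young. Around the opening where the new protein leaves the ribosome, 8 genes (Rpl17, Rpl19, Rpl22, Rpl23a, Rpl26, Rpl31, Rpl35 and Rpl39) ran between 0.16 and 0.25, with a median of 0.22. An unadjusted limma p under 0.05 was reached by 3 of these 8, as by 29 of all 75 members. Over all probes 9.59% were higher at that threshold. Near the centre that joins amino acids, Rpl3, Rpl8 and Rpl10 gave 0.18, 0.19 and 0.23, each with an unadjusted p under 0.05. Rpl4, which lines the tunnel behind that centre, gave 0.037 ± 0.17.

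Rpl4 stood apart in 1 animal at 12 months. Its signal was 4.00 in middle-aged replicate 2, against 4.74 and 4.65 in the other middle-aged animals, 4.60 to 4.67 in the young and 4.61 to 4.71 in the aged animals. Relative to the gene's own median over the 9 animals, Rps26 stood at −0.78 and Rpl4 at −0.65 in this animal. Both were among the 3 largest such departures over all 75 genes and 9 animals. This animal was hybridised to 1 array, so no repeat of these values exists. It does not enter the aged and young means of these genes, but it does enter the spread behind their standard errors.

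**Figure D3:**
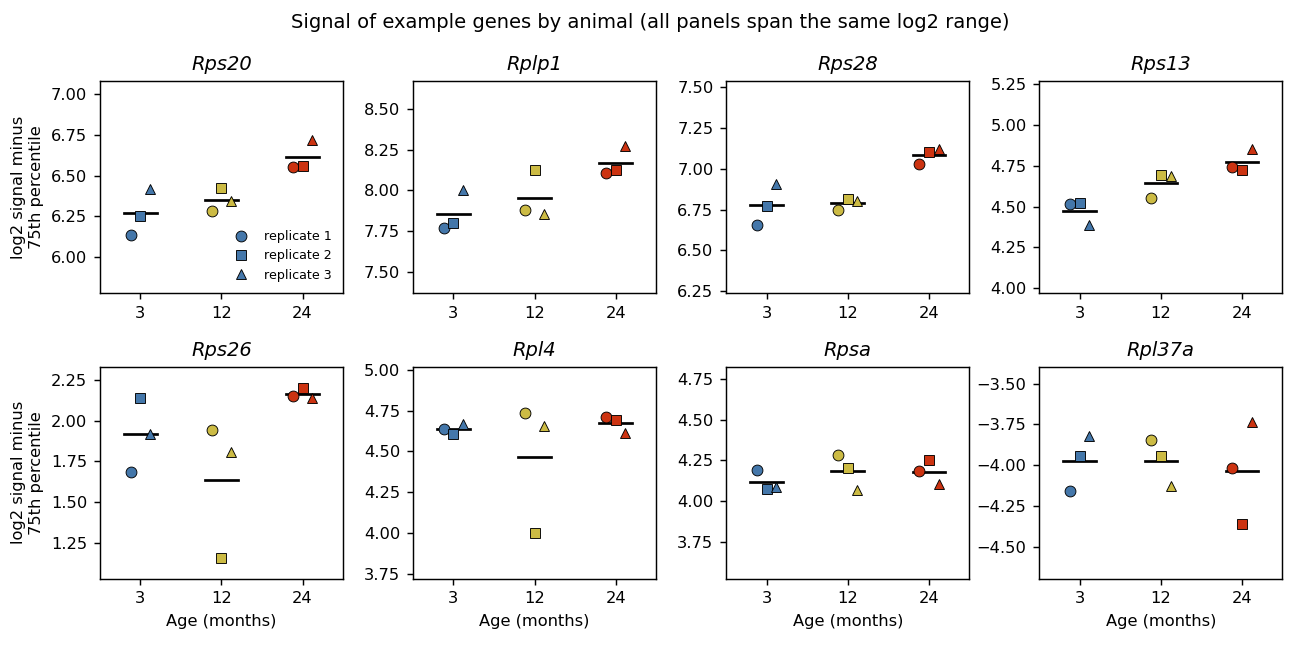
Log2 signal minus the array's 75th percentile of 8 genes, by age in months (horizontal axis); each symbol is 1 animal (shape gives the replicate), bars are group means, and all panels span the same log2 range. In the upper row the 3 aged animals lie above the young ones. In the lower row Rps26 and Rpl4 have middle-aged replicate 2 far from the rest, and the aged and young animals of all 4 genes overlap.

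Rpl18 and Rpl37a gave the smallest differences of the large subunit beside Rpl4. Rpl18 had 4.50, 4.52 and 4.57 in aged animals, against 4.48, 4.42 and 4.59 in young animals, 0.031 ± 0.070, and its other probe gave 0.11 ± 0.071. The Rpl37a probe was dim, with −4.02, −4.36 and −3.73 in aged animals, against −4.16, −3.95 and −3.82 in young animals. Its difference was −0.060 ± 0.16, with an adjusted p of 0.891 by limma. Its sequence (chr9:71987526-71987585, plus strand, rn3) is shown with its first 13 bases in capitals. These equal the last bases of the gene's RefSeq promoter window, from base 38 after the annotated start on. Whether the probe reads the mature mRNA of Rpl37a was not tested.
Rpl37a probe: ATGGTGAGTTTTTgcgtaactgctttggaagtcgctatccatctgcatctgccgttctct

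Paralogs known for restricted expression were measured as well. Rpl3l, the striated muscle paralog of Rpl3 in mouse and human, had −1.91, −1.92 and −1.78 in aged animals, against −2.15, −1.98 and −1.94 in young animals. The groups did not overlap, and the difference was 0.15 ± 0.087 (limma adjusted p = 0.443). Rpl10l, a paralog expressed in testis in mouse and human, had −0.43, −0.66 and −0.43 in aged animals, against −0.69, −0.76 and −0.84 in young animals, also with no overlap. Its difference was 0.26 ± 0.094 (limma adjusted p = 0.252), beside 0.23 ± 0.084 for Rpl10. The probes of these paralogs overlap along 41 bases and are identical at 36 of them (87.8%), and binding of mRNA of one to the probe of the other was not tested. Both are printed with the identical bases of the overlap in capitals.
Rpl10 probe, chrX:160413361-160413420, minus strand, rn3: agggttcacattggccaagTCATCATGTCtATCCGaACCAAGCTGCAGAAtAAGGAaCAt
Rpl10l probe, chr6:87933847-87933906, minus strand, rn3: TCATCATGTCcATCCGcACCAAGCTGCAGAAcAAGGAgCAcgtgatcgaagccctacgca

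For genes with several probes the further probes mostly gave differences like the brightest one. Of 37 further probes, 33 had the same sign as the brightest probe in aged minus young animals. Among the 4 others was a dim probe of Rpl28, a large subunit protein, with −0.024, where the brightest gave 0.20. Probes on the opposite strand of Rps15 and Rpl37 lie 764 and 915 bases from the brightest probe of the gene, and gave 0.29 ± 0.13 and 0.073 ± 0.095. Matched by accession to the current RefSeq table, 92 of the 112 member probes were found and 89 kept the symbol of the array file. The probes named Rpl36a, 2 in number, and the brightest probe of Rpl37 now belong to Rpl36al1 and Rpl37l1.

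In middle-aged compared with young rats the members differed little. The median difference was 0.073, with 68 of 75 differences above 0, against 52.5% of all probes. By limma 0 of 75 genes passed, against 0.175% of all probes, and 0 had an unadjusted p under 0.05, against 3.49% of all probes higher and 2.79% lower. Other settings gave at most 3 such genes, all higher, here with the share of all probes higher. These were normexp (2.41%) and the fits without middle-aged replicate 1 (3.69%) or young replicate 3 (3.14%). The middle-aged animals lay above all young animals for 6 genes (Rpl6, Rpl19, Rpl23a, Rplp2, Rps10 and Rps13), against 6.32% of all probes, and below them for 0 genes, against 4.91% of all probes. Rps13 had 4.55, 4.70 and 4.69 in middle-aged animals, against 4.52, 4.52 and 4.39 in young animals, 0.17 ± 0.078. Among the larger differences were 0.19 ± 0.087 for Rpl3l, 0.19 ± 0.084 for Rpl10 and 0.18 ± 0.12 for Rps15. Those below 0 were Rps26 (−0.28 ± 0.20), Rpl4 (−0.17 ± 0.17), Rps27 (−0.045), Rpl34 (−0.020), Rpl36a (−0.015), Rpl22 (−0.010) and Rps27a (−0.0072). None of these passed (limma adjusted p of 0.814 or more). Without middle-aged replicate 2 the difference was −0.040 for Rps26, 0.060 for Rpl4, 0.12 for Rpl10 and 0.073 for Rps15. The large and small subunit medians were 0.079 and 0.071. The median of all members was 0.037 without middle-aged replicate 2, 0.13 without young replicate 3, 0.044 with slide as a block, 0.037 after quantile normalization and 0.025 on slide 1 alone, and on slide 3 alone it turned to −0.079, where middle-aged replicate 3 met young replicate 3.

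In aged compared with middle-aged rats the median difference was 0.11, with 70 of 75 differences above 0, against 53.9% of all probes. By limma 0 of 75 genes passed, against 0.00336% of all probes, which is 1 probe. At an unadjusted p under 0.05 there were 7 genes, all higher in aged rats (Rpl22, Rpl34, Rps6, Rps20, Rps26, Rps27 and Rps28), against 7.09% of all probes higher and 3.39% lower. The groups did not overlap for 15 genes, all higher in aged rats, against 9.78% of all probes higher and 7.04% lower. These included 10 of the 31 small subunit genes and 5 of the 44 large subunit genes, and the subunit medians were 0.14 and 0.094. Rps26 had the largest difference, 0.53 ± 0.20 (limma adjusted p = 0.429), with 2.15, 2.20 and 2.14 in aged animals, against 1.94, 1.16 and 1.81 in middle-aged animals. Without middle-aged replicate 2 its difference was 0.29, below the 0.31 of Rps28 and the 0.30 of Rps20 in the same fit. Rps27, a zinc finger protein of the small subunit, had 4.60, 4.45 and 4.71 in aged animals, against 4.34, 4.12 and 4.36 in middle-aged animals, 0.31 ± 0.10 (limma adjusted p = 0.395). Rpl34 gave 0.22 ± 0.088 and Rpl36a 0.15 ± 0.090. Below 0 lay, among others, Rpl37a (−0.063), Rpl18 (−0.039), Rpl3l (−0.033) and Rpsa (−0.0047). The unadjusted count of 7 moved with the setting, here with the share of all probes higher in parentheses. It was 15 without middle-aged replicate 2 (7.9%) and 2 without aged replicate 3 (4.5%). It was 4 without aged replicate 1 (8.42%), middle-aged replicate 1 (5.16%), middle-aged replicate 3 (6.42%) or young replicate 2 (6.78%). Median scaling gave 3 (4.45%), normexp 11 (4.26%) and the authors' deposited series matrix 46 (5.39%). The median over the members was 0.062 with median scaling, 0.039 on slide 2 alone and 0.24 on slide 3 alone. This comparison and the one with young rats share the aged animals.

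Over all 3 ages, 63 of the 75 genes had their middle-aged mean between the young and the aged mean, with the aged mean highest. By the moderated F test of limma 0 of 75 genes passed, against 1.02% of all probes. At an unadjusted p under 0.05 there were 10 of 75 genes, against 12.1% of all probes. They were Rplp1 and Rplp2 of the large subunit and Rps6, Rps10, Rps13, Rps18, Rps19, Rps20, Rps27 and Rps28 of the small subunit.

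Ribosomal protein probes were among the brightest on the arrays, and 71 of the 75 genes lay in the brightest of 10 equal classes of the probes kept. The median aged minus young difference of the other probes of that class was 0.038. Over 846 other probes at or above the lower quartile of the members' signal the median was 0.046, with 65.8% above 0. The large and small subunit genes lay to the right of these probes over most of their range, and both had a smaller highest value than they did.

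**Figure D4:**
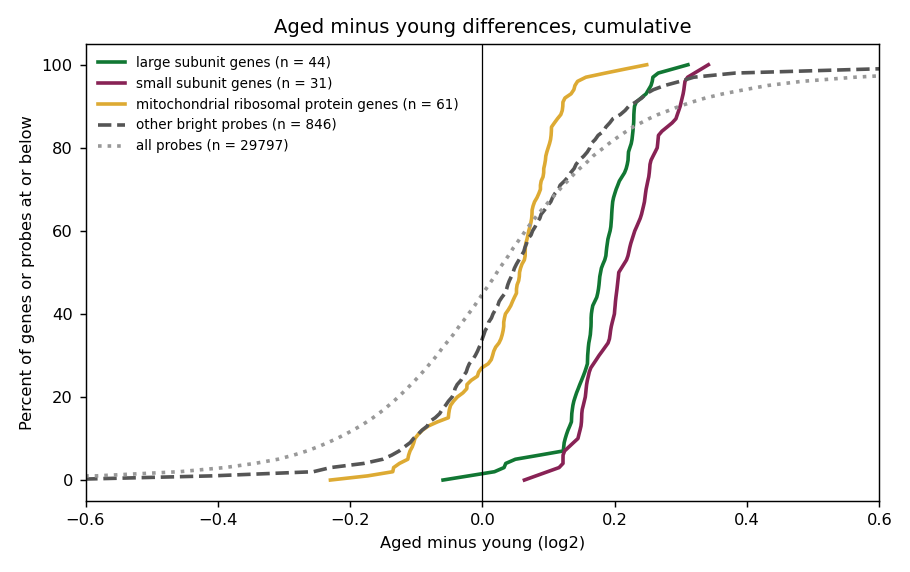
Cumulative distribution of aged minus young log2 differences (horizontal axis, shown from −0.6 to 0.6) for large subunit genes, small subunit genes, mitochondrial ribosomal protein genes, other probes as bright as the members and all probes; the vertical axis is the percent of genes or probes at or below a value. Medians are 0.18, 0.21, 0.056, 0.046 and 0.022.

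Other genes of protein synthesis gave smaller medians in aged minus young animals. Mitochondrial ribosomal proteins, which serve the organelle's own ribosome, had a median of 0.056 over 61 genes, with 17 below 0, and 0 passed by limma or had an unadjusted p under 0.05. Elongation factors and other mRNAs with the oligopyrimidine start had 0.105 over 17 genes. They included Fau, which codes a ribosomal protein fused to a ubiquitin-like protein but falls outside the name rule, with 0.23. Pabpc1, the poly(A)-binding protein, had the highest value of that list, 0.36 (limma adjusted p = 0.191), and Eef2, which moves the ribosome along the mRNA, the lowest, −0.27 (limma adjusted p = 0.391). Ribosome biogenesis genes had 0.069 over 28 genes, the initiation factor list 0.017 over 42, and the mTOR pathway 0.013 over 16. The initiation factor list took every gene name that begins with Eif and a digit. It therefore also holds genes that are not initiation factors, such as Eif2ak1, Eif2c1 and Eif4ebp1. By limma 0 genes of these lists passed. At an unadjusted p under 0.05 there were 3 higher of 17 in the elongation list and 2 higher and 1 lower of 28 in ribosome biogenesis. The initiation factor list had 1 higher and 1 lower of 42, and the mTOR pathway 2 higher of 16. Over all probes 9.59% were higher and 5.54% lower. Eif4ebp1, a repressor of the cap-binding protein Eif4e, is switched off by mTOR and is in both the initiation factor and the mTOR list. It was closest to passing, with 0.51 (limma adjusted p = 0.0799). Larp1 itself gave 0.0018.

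Markers of cell types differed in the same comparison. Of 12 microglia markers all were higher in aged than in young animals, 9 passed, and their median was 0.84. Summed up by animal as the median difference from the young mean, they stood at −0.097 to 0.082 in young, 0.41 to 0.58 in middle-aged and 0.73 to 0.97 in aged animals. All 7 oligodendrocyte markers were lower in aged animals, 2 passed, and their median was −0.46. This list stood at −0.021 to 0.050 in young, −0.45 to −0.35 in middle-aged and −0.63 to −0.32 in aged animals. The red cell genes Hbb and Alas2 had a median of 0.90, and C1 neuron markers one of −0.41, with 0 passing in either list. Astrocyte markers (6 genes) had a median of 0.022 and ran from −0.13 to 0.92. Neuron markers (4 genes) had a median of −0.12 and ran from −0.14 to −0.023. Endothelial markers (4 genes) had one of 0.024 and ran from −0.35 to 0.52. In these lists, too, 0 genes passed. Among the middle-aged animals the microglia list was highest in replicate 2, as were the ribosomal protein genes, and among the aged animals it was highest in replicate 1, where the ribosomal protein genes were highest in replicate 3. The part of these cell types in the ribosomal protein differences was not tested.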

How the data were processed

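RNA of RVLM punches was hybridised, in 1 colour, to 12 Agilent arrays of 9 rats. Per the file headers, the deposited scanner files hold intensity values made with Agilent Feature Extraction 9.5.1.1, already background-corrected as the processed signal, with probe coordinates on rat build rn3. The authors' deposited series matrix holds a score with mean 0 and SD 1 within each array. It correlated with the log2 processed signal at 1.0 on every array when rounded, its column medians lay between −0.044 and −0.015, and the base of its logarithm and its choice of features stay unknown.

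Control and outlier spots were left out, spots of a probe averaged, and each array's 75th percentile subtracted from its log2 values. Arrays of 1 animal were averaged. A probe was kept if at least 1 age had it well above background on all its arrays. limma 3.58.1 in R 4.3.3 was fitted over all 3 ages, with Benjamini-Hochberg adjustment over 29797 probes and a threshold of 0.05. The fit was tested on simulated data. The members, role groups and lists were chosen with earlier results of these data known. Genes were named by rule where they had the 5 largest or smallest differences of a comparison or were tissue paralogs; other genes, named by role, animal or probe, were chosen after their values were seen. Alternatives were slide and replicate blocks, single slides, other scalings and filters, 12 arrays with a random block for the animal, 1 probe per gene, fits of 2 ages, the series matrix, and leaving out each animal. Some members enter the counts, medians and fits but are not reported here by name or plotted as single genes.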

Additional observations from a re-analysis of the deposited data

How the results depend on the processing

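In aged minus young animals the median over ribosomal protein genes was above 0 in every alternative run, at 0.15 to 0.23 with 1 animal left out and, on the log2 scale, lowest with quantile normalization (0.13 against 0.19), and 0 of 75 genes passed in all but the series matrix, where 1 did (Rps28) and the median was 0.077 in that matrix's own units. Of the values of single genes, 664 kept their direction and side of the threshold, 1 passed only in another setting and 47 moved by more than the spread between animals.

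Counts over all probes moved most. For aged minus young (552 probes) they were 318 with no filter, 320 with normexp, 320 with slide as a block and 280 to 544 with 1 animal left out. For middle-aged minus young (52 probes) they were 81 over 12 arrays, 5 with no filter, 20 with normexp, 3 in the fit of 2 ages, 1 with the replicate block, 32 in the series matrix, 31 with slide as a block and 2 to 18 with 1 animal left out. For aged minus middle-aged (1 probe) they were 3 with 1 probe per gene, 28 over 12 arrays, 4 with normexp, 3 with the stricter filter, 0 with median scaling, no filter, quantile normalization, the replicate block or the series matrix, and 0 to 3 with 1 animal left out. In the F test (304 probes) they were 152 with no filter, 164 with the replicate block, 175 with slide as a block and 90 to 265 with 1 animal left out.

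The large minus small subunit median was −0.0081 in the series matrix and −0.011 with slide as a block for aged minus young, and −0.046 to −0.014 with 1 animal left out. For middle-aged minus young it was 0.026 on slide 1, 0.026 on slide 3 and −0.012 to 0.029 with 1 animal left out. For aged minus middle-aged it was −0.021 with normexp, −0.015 in the series matrix, −0.027 on slide 2, −0.083 on slide 3 and −0.048 to −0.029 with 1 animal left out. The median over members for middle-aged minus young (0.073) was 0.044 with slide as a block, 0.037 after quantile normalization, 0.025 on slide 1 and −0.079 on slide 3, and 0.037 to 0.13 with 1 animal left out. For aged minus middle-aged (0.11) it was 0.062 with median scaling, 0.039 on slide 2 and 0.24 on slide 3, and 0.082 to 0.16 with 1 animal left out. The cause of these changes was not tested.

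Animals with the same replicate number did not deviate together (correlations from −0.407 to 0.378), so the numbers were not taken as pairs. With the replicate block the aged minus young median was 0.19 and 0 genes passed. At an unadjusted p under 0.05, 20 of 75 genes were higher in that fit, against 9.32% of all probes. The limits are 3 animals per age, slides partly confounded with age, and 1 array for most animals.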
